A study of Rattus norvegicus with 22 samples.

Results

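Transcripts of the AMP-activated protein kinase (AMPK) and of its closest upstream and downstream kinases were examined in rat liver after a block of the mitochondrial respiratory chain. The set holds 8 genes of the 18166 measured: the 6 subunit genes Prkaa1, Prkaa2, Prkab1, Prkab2, Prkag1 and Prkag2, the kinase gene Stk11 and the kinase gene Ulk1. Each was read from the probe set (the group of array probes summarised to one value) that the platform annotation gives to that gene symbol alone, and each of the 8 had 1 such probe set. RNA came from the median liver lobe of female Crl:CD(SD) rats, an outbred Sprague-Dawley stock, aged 12 weeks, and each of 22 rats had its own array. One group of 12 rats received vehicle (mannitol, hydroxypropylmethylcellulose and sodium dodecyl sulphate in water). The other received 50 mg/kg GSK932121A, an inhibitor of complex III of the electron transport chain, in the same vehicle, as 1 intraperitoneal dose, and its livers were taken after 5 hours. No sampling time is stated for the vehicle rats. The submitters dosed 12 rats per group and left out 2 treated rats with low plasma exposure, which leaves 10 treated arrays.

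AMPK senses the energy state of the cell. It is a trimer of a catalytic alpha, a scaffolding beta and a nucleotide-binding gamma subunit, and each subunit has more than one gene. A fall in ATP raises AMP and ADP, which bind the gamma subunit and favour phosphorylation of the alpha subunit, mainly by LKB1, the product of Stk11. Active AMPK restrains fatty acid, sterol and glucose production in hepatocytes, restrains mTORC1, a growth-promoting kinase complex, and phosphorylates ULK1, the kinase that starts autophagy. This regulation acts on protein, through phosphorylation, which transcript arrays do not measure.

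The 8 transcripts moved little. Prkaa1, the gene of the alpha1 catalytic subunit, rose 1.19-fold after GSK932121A, and Prkag2, the gene of the gamma2 regulatory subunit, fell 1.22-fold. The other 6 did not pass at an adjusted p under 0.05 in limma, a linear model fitted to all genes with Benjamini-Hochberg adjustment. Of the 8 genes 2 (25%) thus passed, beside 12.4% of all genes tested. For rises the count was 1 of 8 beside 5.31% of all genes, and for falls 1 of 8 beside 7.05%. With so few members, this count depends on single genes, and it ranged from 0 to 2 as arrays were left out one at a time. The members were also chosen with earlier results of these data known, so their share cannot be read as an enrichment. The median log2 difference of the 8 genes was -0.061, beside -0.0088 over all genes tested. The median of an array was between 4.73 and 4.85 log2 units, so all members but Prkab2 were measured above the middle of the array. The share over all genes includes dimmer genes, and the share among genes of like level is not given here.

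**Figure D1:**
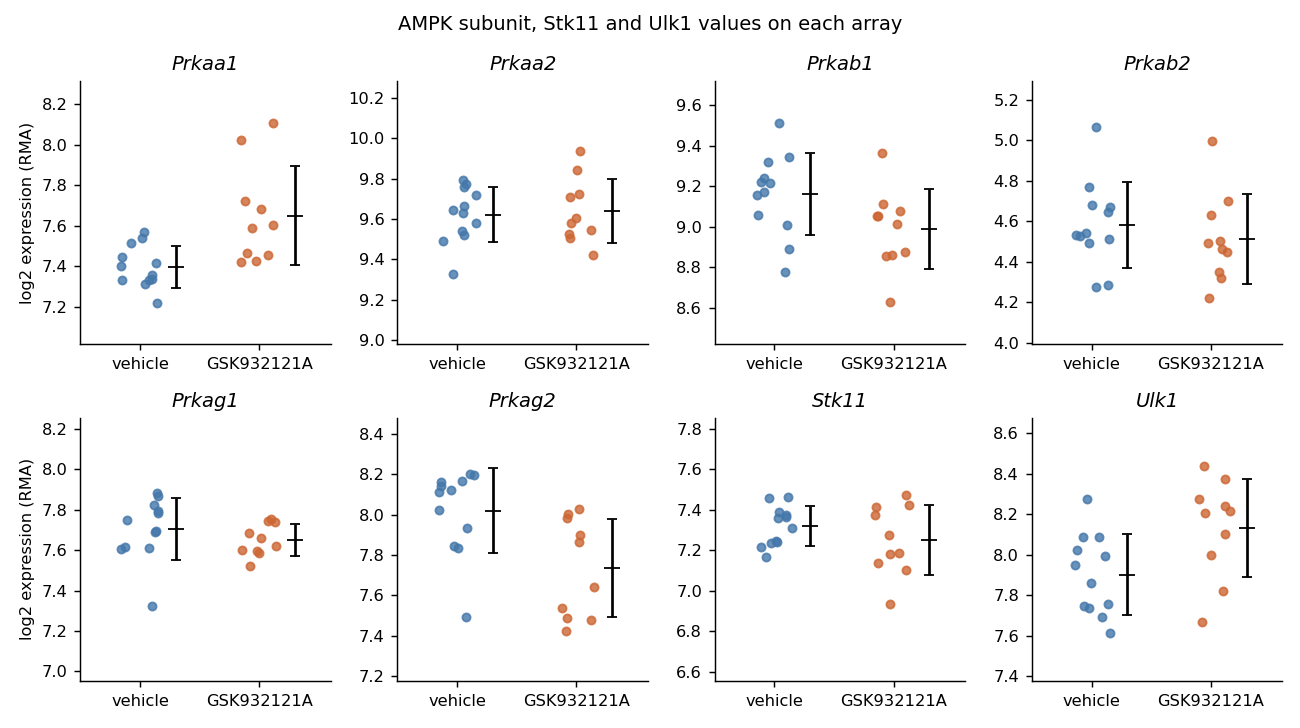
Log2 expression of each gene on each array (blue, 12 vehicle; orange, 10 GSK932121A), with the mean and SD beside the points; every panel spans the same number of log2 units. For Prkaa1, 6 of 10 treated arrays lie above the highest vehicle array, while the groups overlap widely for Prkaa2, Prkab2 and Prkag1.

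The catalytic subunit genes were examined first. Prkaa1 ran from 7.22 to 7.57 with a median of 7.38 on the vehicle arrays, and from 7.42 to 8.11 with a median of 7.60 on the treated arrays. All 10 treated arrays lay above the vehicle median and 6 lay above the highest vehicle array, with the highest values in GSK932121A replicates 18 (8.11) and 14 (8.02). The means were 7.40 ± 0.10 and 7.65 ± 0.24 (SD, n = 12 and 10), a log2 difference of 0.25 ± 0.08 (SE; 95% confidence interval 0.09 to 0.42; limma, adjusted p = 0.0337). The call was lost without vehicle replicates 1, 4, 5 or 10 (adjusted p between 0.0506 and 0.0548) and without GSK932121A replicates 14 (0.0728) or 18 (0.0686). It was also lost with 5 surrogate variables for hidden factors (adjusted p = 0.203). Prkaa2, which encodes the alpha2 subunit, ran from 9.33 to 9.79 with a median of 9.64 on vehicle arrays and from 9.42 to 9.93 with a median of 9.59 on treated arrays. These ranges overlapped almost fully, and the log2 difference was 0.02 ± 0.07 (SE; 95% confidence interval -0.12 to 0.16; limma, adjusted p = 0.909). As a fold, this 95% interval for the difference of the group means ran from 0.92 to 1.12, under the deposited normalisation.

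The scaffolding beta subunits tether alpha to gamma and bind glycogen. Prkab1, the beta1 gene, ran from 8.78 to 9.51 with a median of 9.19 on vehicle arrays and from 8.63 to 9.37 with a median of 9.03 on treated arrays. Of the treated arrays 9 of 10 lay below the vehicle median, but only GSK932121A replicate 18 lay below the lowest vehicle array. The log2 difference, -0.17 ± 0.09 (SE; 95% confidence interval -0.35 to 0.0051), did not pass (limma, adjusted p = 0.227). Prkab2, the beta2 gene, ran from 4.28 to 5.07 with a median of 4.54 on vehicle arrays and from 4.22 to 4.99 with a median of 4.48 on treated arrays. Its vehicle mean of 4.58 lay below every array median, so any change would be compressed towards the background. The groups overlapped, with a log2 difference of -0.07 ± 0.09 (SE; limma, adjusted p = 0.706).

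The gamma subunits carry the adenine nucleotide sites. Prkag2, the gamma2 gene, ran from 7.49 to 8.20 with a median of 8.12 on vehicle arrays and from 7.43 to 8.03 with a median of 7.75 on treated arrays. All 10 treated arrays lay below the vehicle median, and GSK932121A replicates 17, 18 and 20 lay below the lowest vehicle array. Vehicle replicate 3, at 7.49, stood below the other vehicle arrays, of which the next lowest was 7.84. The means were 8.02 ± 0.21 and 7.73 ± 0.24 (SD, n = 12 and 10), a log2 difference of -0.28 ± 0.09 (SE; 95% confidence interval -0.48 to -0.09; limma, adjusted p = 0.0464). The call lay close to the threshold. It held without vehicle replicates 3 (adjusted p = 0.0103), 6 or 12 and without GSK932121A replicates 14, 16, 22, 23 or 24, and leaving out any of the remaining 14 arrays ended it, the highest adjusted p being 0.0914 (GSK932121A replicate 18 left out). Renewed normalisation also ended it, with adjusted p of 0.0515 after quantile normalisation, 0.0617 after median centring and 0.0939 after cyclic loess.

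Prkag1, the gamma1 gene, ran from 7.32 to 7.88 with a median of 7.72 on vehicle arrays and from 7.52 to 7.76 with a median of 7.64 on treated arrays. All treated arrays lay within the vehicle range. Its log2 difference was -0.05 ± 0.06 (SE; 95% confidence interval -0.18 to 0.07; limma, adjusted p = 0.667).

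Stk11 and Ulk1 stand on either side of AMPK. Stk11, which encodes LKB1, ran from 7.17 to 7.46 with a median of 7.34 on vehicle arrays and from 6.94 to 7.47 with a median of 7.23 on treated arrays. The treated arrays reached further down, with 3 of 10 below the lowest vehicle array and 1 above the highest. The difference, -0.07 ± 0.06 on the log2 scale (SE; 95% confidence interval -0.20 to 0.06), did not pass (limma, adjusted p = 0.571). Ulk1, which encodes the autophagy-initiating kinase, ran from 7.61 to 8.27 with a median of 7.90 on vehicle arrays and from 7.67 to 8.44 with a median of 8.21 on treated arrays. Of the treated arrays 8 of 10 lay above the vehicle median and 3 lay above the highest vehicle array. The log2 difference was 0.23 ± 0.09 (SE; 95% confidence interval 0.04 to 0.42) and did not pass after adjustment over all genes (limma, p = 0.0182, adjusted p = 0.109). It passed after cyclic loess (adjusted p = 0.0461) and without GSK932121A replicate 13 (0.0337), the treated array with the lowest Ulk1 and Stk11.

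**Figure D2:**
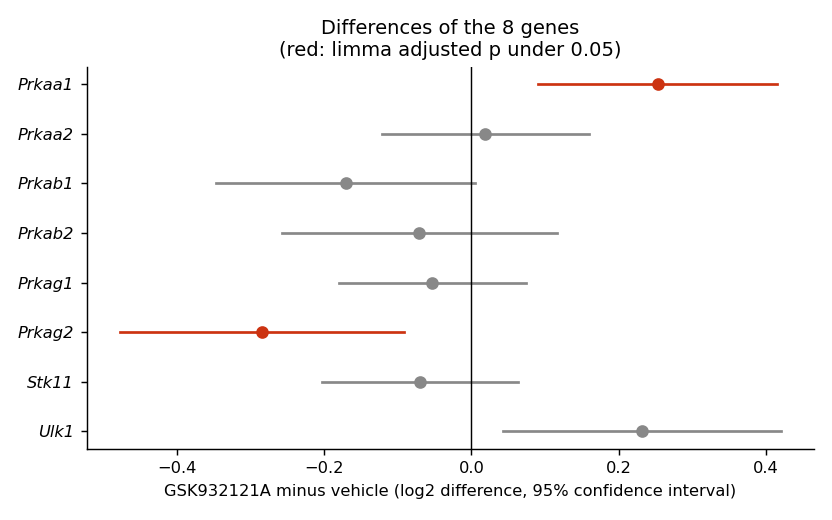
Log2 difference between GSK932121A and vehicle for each gene with its 95% confidence interval from limma; red marks an adjusted p under 0.05. Prkaa1 lies above 0 and Prkag2 below it, and the interval of Ulk1 lies above 0 although its adjusted p is 0.109.

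The promoters of both genes that passed, and that of Stk11, are shown because one motif of a transcription factor family discussed below, FoxO, occurs in the last. Sequences are from RefSeq on the rat build GRCr8, which need not be the build of the array design, and all 8 genes matched the promoter table. Each window of 300 bases runs from 250 bases before to 50 bases after the annotated start, 5′ to 3′ on the gene's strand. Prkaa1 lies on the plus strand at chr2:55967525-55967824, Prkag2 on the plus strand at chr4:10744445-10744744 and Stk11 on the minus strand at chr7:10241916-10242215, and capitals mark a match.
Prkaa1: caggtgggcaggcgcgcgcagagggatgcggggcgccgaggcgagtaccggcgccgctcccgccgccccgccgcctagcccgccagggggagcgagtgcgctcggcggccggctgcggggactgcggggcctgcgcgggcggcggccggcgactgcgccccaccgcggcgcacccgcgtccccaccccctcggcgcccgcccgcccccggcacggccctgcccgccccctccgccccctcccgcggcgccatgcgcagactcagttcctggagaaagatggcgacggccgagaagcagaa
Prkag2: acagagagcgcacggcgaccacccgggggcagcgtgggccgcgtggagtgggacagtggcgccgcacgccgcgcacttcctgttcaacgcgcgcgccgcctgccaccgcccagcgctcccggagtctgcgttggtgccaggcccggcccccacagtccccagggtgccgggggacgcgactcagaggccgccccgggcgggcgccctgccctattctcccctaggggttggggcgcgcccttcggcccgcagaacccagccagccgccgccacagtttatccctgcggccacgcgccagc
Stk11: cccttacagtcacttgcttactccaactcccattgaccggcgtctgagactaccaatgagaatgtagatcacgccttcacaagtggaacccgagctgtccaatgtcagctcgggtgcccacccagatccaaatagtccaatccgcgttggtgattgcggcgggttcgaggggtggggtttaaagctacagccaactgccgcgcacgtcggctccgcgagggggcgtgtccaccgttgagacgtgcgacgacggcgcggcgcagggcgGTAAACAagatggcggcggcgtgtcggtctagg
The windows of Prkaa1 and Prkag2 are rich in G and C, at 81.3% and 76%, and that of Stk11 holds 60.7%, beside a median of 52.3% over 27457 promoters. On both strands, 4 motifs were searched. The FoxO motif GTAAACA occurred in 1 of 8 windows, at positions 268 to 274 of that of Stk11, downstream of the start, and in 3.76% of all promoters. The cAMP response half-site TGACG occurred in 2 of 8 windows, those of Prkab2 and Prkag1, and in 22.0% of all promoters. The E-box CACGTG (6.65% of all promoters) and the C/EBP-ATF motif TGATGNAA (3.82%) occurred in 0 of 8. These are matches of letters only.

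Whether the isoform genes of a subunit changed unequally was tested by the within-array log2 difference of each pair, over 3 pairs. Prkaa2 relative to Prkaa1 was lower by 0.23 ± 0.12 (SE) on the log2 scale after GSK932121A, and 9 of 10 treated arrays lay below the vehicle median (two-sided permutation test, p = 0.0387, adjusted p = 0.0581). The difference was widest in GSK932121A replicate 18, at -0.91 from the vehicle mean. Prkag2 relative to Prkag1 was lower by 0.23 ± 0.10 (SE), with 10 of 10 treated arrays below the vehicle median (permutation p = 0.0288, adjusted p = 0.0581). Prkab2 relative to Prkab1 differed by 0.10 ± 0.15 (SE; permutation p = 0.519). None of the 3 pairs passed after adjustment. Without GSK932121A replicate 16 or 23 the alpha and gamma pairs passed, the gamma pair also without vehicle replicate 3 or GSK932121A replicate 22, and the lowest adjusted p were 0.0103 for the alpha pair and 0.0159 for the gamma pair. Prkaa1 passed and Prkaa2 did not when each was tested alone, and the test of an unequal change of the pair did not pass.

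How far treated animals differed from each other varied with the gene. The SD of Prkaa1 was 2.34 times as large among treated as among vehicle arrays, a ratio that 1.95% of all genes reached, beside a median of 1.01 over all genes. For Stk11 the ratio was 1.76, reached by 7.82% of genes. For Prkag1 it was 0.51, with 3.50% of genes at or below that ratio. The ratios of Prkaa2, Prkab1, Prkab2, Prkag2 and Ulk1 lay between 0.98 and 1.22. Single arrays weigh on such ratios. Prkaa1 was 8.02 and 8.11 in GSK932121A replicates 14 and 18, the next treated value being 7.72. Prkag1 was 7.32 in vehicle replicate 12, the next lowest vehicle value being 7.61. The ratios were not computed without these arrays. GSK932121A replicate 18 held the highest treated value of Prkaa1 and Prkab2 and the lowest of Prkaa2, Prkab1 and Prkag1, which is 5 of the 8 genes. Over all genes, this array held the highest or lowest treated value of 21.7%, within the range of 15.8% to 24.2% over the treated arrays. High Prkaa1 did not go with low Prkag2 throughout: replicate 14 had Prkaa1 at 8.02 and the highest treated Prkag2, 8.03.

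**Figure D3:**
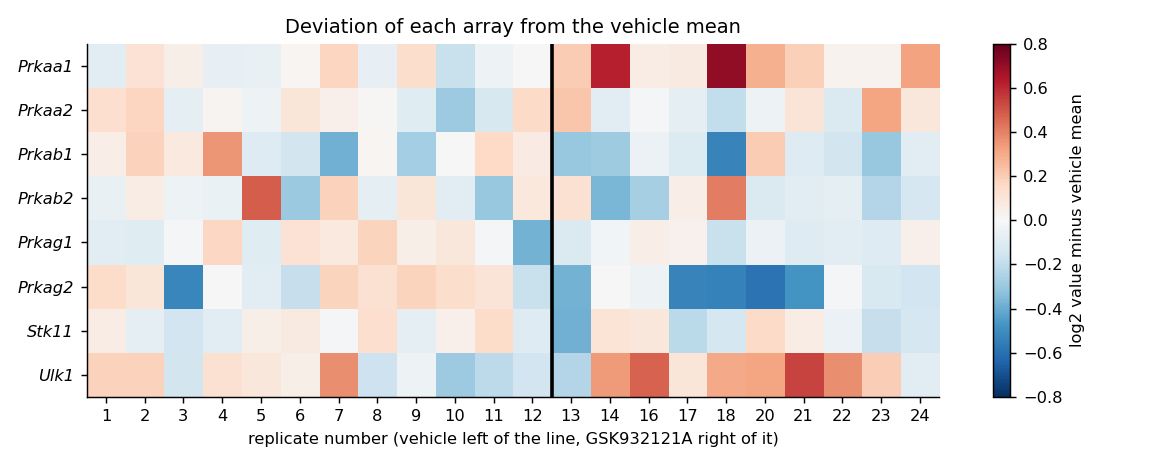
Log2 value of each gene on each array minus the mean of the vehicle arrays (red, higher; blue, lower). Replicates 14 and 18 stand out for Prkaa1, and replicates 13, 17, 18, 20 and 21 for low Prkag2, as does vehicle replicate 3.

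How the 8 genes varied together among animals of one group was read from their pairs. Of 28 pairs, 0 passed after adjustment within the vehicle group (1 at an unadjusted permutation p under 0.05), with Pearson's r from -0.47 to 0.60 and a median of -0.061. Within the treated group 0 of 28 passed as well (2 at an unadjusted permutation p under 0.05), with r from -0.67 to 0.81 and a median of -0.070. By Spearman's rho 0 of 28 passed in either group. The closest pair was Stk11 with Ulk1 among treated arrays (n = 10), with Pearson's r = 0.81 (permutation p = 0.00402, adjusted p = 0.113) and Spearman's rho = 0.72 (permutation p = 0.0232). Without the 2 arrays farthest from the median of Stk11, r was 0.73.

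The 8 genes were also set against Ppargc1a, which encodes the coactivator PGC-1alpha, a substrate of AMPK. This relation was chosen after the values were seen. Ppargc1a ran from 5.58 to 7.18 on vehicle arrays and from 7.24 to 10.42 on treated arrays, so its level spread widely among treated animals. Prkab1 was lower where Ppargc1a was higher among the 10 treated arrays, with Pearson's r = -0.80 (permutation p = 0.00215, adjusted p = 0.0172 over 8 genes) and Spearman's rho = -0.89 (permutation p = 0.00119, adjusted p = 0.00952). Without the 2 arrays farthest from the median of Ppargc1a, replicates 20 and 24, r was -0.66 (permutation p = 0.0755, adjusted p = 0.302), so the call was lost on the remaining 8 arrays. Among the 12 vehicle arrays r was -0.013 (permutation p = 0.967) and rho was 0 (permutation p = 1). Prkag1 had r = -0.63 with Ppargc1a among treated arrays (permutation p = 0.0531, adjusted p = 0.213) and rho = -0.75 (permutation p = 0.017, adjusted p = 0.068). Without the same 2 arrays its r was -0.79 (permutation p = 0.014, adjusted p = 0.112), which did not pass. The other 6 genes had r between -0.33 and 0.28 on all treated arrays. Prkaa1 was among these, with r = 0.088 (permutation p = 0.834) and rho = -0.055 (permutation p = 0.892).

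**Figure D4:**
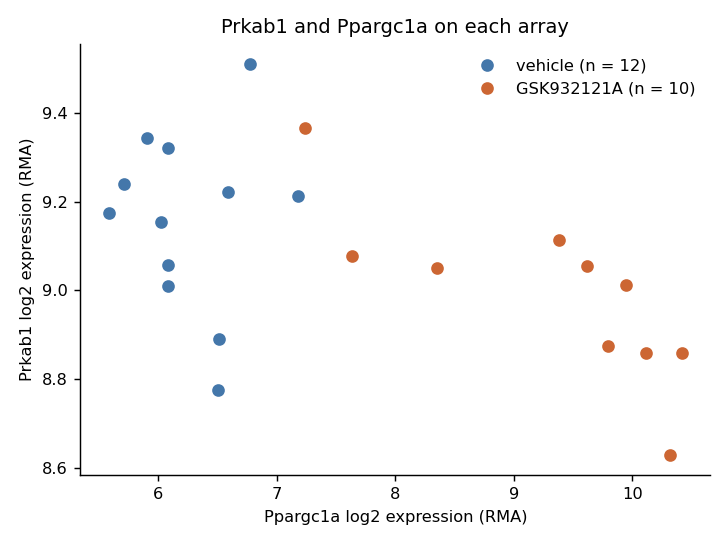
Prkab1 against Ppargc1a in log2 units on each array (blue, 12 vehicle; orange, 10 GSK932121A). Among treated arrays the lowest Ppargc1a, 7.24, goes with Prkab1 9.37, and the highest, 10.42, with Prkab1 8.86. The lowest treated Prkab1, 8.63, goes with Ppargc1a 10.32, and for the vehicle arrays r is -0.013.

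The genes whose deviations from the group means were most like those of Prkaa1 over the 22 arrays were Zfp770 (Pearson's r = 0.82, Spearman's rho = 0.64), Osgin1 (r = 0.79, rho = 0.67) and Hhex (r = 0.77, rho = 0.57). These were picked as the highest of all genes, so no p is given, and r was higher among treated than among vehicle arrays for Zfp770 (0.95 and 0.25), Hhex (0.87 and 0.31) and Osgin1 (0.84 and 0.67). Their group differences did not follow Prkaa1. Osgin1, named for growth inhibition under oxidative stress, fell by 1.54 on the log2 scale (limma, adjusted p = 5.03e-05). Zfp770 and Hhex differed by 0.01 and -0.36 without passing. GSK932121A replicates 14 and 18 held the highest treated values of Prkaa1 (8.02 and 8.11, the next being 7.72). They also held those of Osgin1 (8.47 and 8.82, the next being 7.63). The treated r was not computed without these 2 arrays, so it may rest on them. For Prkag2 the closest genes were Septin9 (r = 0.76, rho = 0.76), Esrrg, an orphan nuclear receptor (r = 0.75, rho = 0.72), and Mta3 (r = 0.74, rho = 0.69). Here r was like in both groups, for Septin9 0.82 among vehicle and 0.71 among treated arrays, and none of the 3 passed in the group comparison. Vehicle replicate 3, the lowest vehicle array for Prkag2 (7.49), was also the lowest for Septin9 (8.13) and Esrrg (6.22). The vehicle r was not computed without this array, so it may rest on it.

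The rest of the pathway was read from 10 lists of genes, with 133 of 159 genes measured. Of these, 32 (24.1%) passed, 16 up and 16 down, beside 12.4% of all genes, and their median log2 difference was -0.0097 beside -0.0088. The balance depended on the normalisation, with 22 up and 10 down among 32 after cyclic loess and 18 up and 13 down after quantile normalisation. Of the 32 genes 24 passed whichever array was left out, and 8 passed with surrogate variables. The lists were chosen with earlier results of these data known. Neither this share nor those of single lists below can therefore be read as an enrichment. The lists are described by counts alone.

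Upstream of AMPK, 1 of 7 genes for LKB1 partners and other AMPK kinases passed (14.3%, beside 12.4% of all genes). Cab39l, which encodes a form of the MO25 scaffold of LKB1, fell 1.21-fold (limma, adjusted p = 0.0184). The scaffold gene Cab39 and the pseudokinase gene Strada differed by 0.07 and -0.10 on the log2 scale, and Camkk2, a calcium-dependent AMPK kinase, by -0.27 ± 0.10 (SE; limma, adjusted p = 0.0953; 0.0452 without vehicle replicate 12), none of which passed on all arrays. Of 10 phosphatase genes, 1 passed (10%). Ppp1r3b, the glycogen-targeting subunit of protein phosphatase 1 in liver, fell 1.45-fold (limma, adjusted p = 0.0245). This call was lost without GSK932121A replicates 16 (0.0503) or 18 (0.0543). Among 13 AMPK-related kinase genes, 2 passed (15.4%). Sik1 rose 7.61-fold and Mark3, a microtubule affinity-regulating kinase, fell 1.23-fold. The muscle-type gamma3 gene Prkag3, in the same list, lay below the array medians, at 4.67 on average on vehicle arrays, with a difference of 0.03 ± 0.08 (SE). No change of the size of Sik1 was thus seen in any AMPK subunit gene.

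Downstream, 5 of 13 genes for metabolic substrates passed (38.5%), 4 up and 1 down. Gys2, liver glycogen synthase, rose from 8.40 ± 0.38 to 9.47 ± 0.52 (SD, n = 12 and 10), 2.11-fold, with 9 of 10 treated arrays above the highest vehicle array (limma, adjusted p = 0.000113). Pfkfb3, an enzyme that makes the glycolytic activator fructose 2,6-bisphosphate, rose 1.44-fold, Acaca, acetyl-CoA carboxylase 1, rose 1.42-fold (adjusted p = 0.0142), and Tbc1d1, a Rab GTPase-activating protein, rose 1.25-fold. Acacb, the paralogous mitochondrial acetyl-CoA carboxylase, differed by -0.16 ± 0.11 (SE) and did not pass. Gpam, which starts glycerolipid synthesis, fell 1.28-fold (adjusted p = 0.0466), a call that ended on leaving out any of 14 arrays, the highest adjusted p being 0.0968 (GSK932121A replicate 13 left out). The count was 2 with the Welch test and 1 with the Wilcoxon rank sum test: Gpam, Pfkfb3 and Tbc1d1 passed neither, and Acaca did not pass the latter.

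Among 14 transcription factors and coactivators under AMPK control, 5 passed (35.7%), 3 up and 2 down. Beside Ppargc1a, Foxo1 rose 1.56-fold, from 8.02 ± 0.18 to 8.67 ± 0.29 (SD, n = 12 and 10), and Foxo3 rose 1.81-fold with a much wider spread, from 7.64 ± 0.14 to 8.49 ± 0.77. Both are forkhead factors that are active when insulin signalling is low. Hdac5, a class IIa histone deacetylase, fell 1.53-fold with all 10 treated arrays below the lowest vehicle array (limma, adjusted p = 1.64e-06), and Nfe2l2, which encodes NRF2, fell 1.47-fold with 9 of 10 below it. Foxo1, Nfe2l2 and Ppargc1a passed under all 12 alternatives other than left-out arrays, and Hdac5 under the 11 in which it was tested (its mean lay below the filter at 7), while Foxo3 did not pass by the Welch test (adjusted p = 0.0559) or with surrogate variables (0.73).

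Around ULK1, 5 of 13 genes for its complex and for autophagy initiation passed (38.5%), 2 up and 3 down. Nrbf2 and Uvrag, which encode partners of the phosphatidylinositol 3-kinase VPS34, rose 1.65-fold (limma, adjusted p = 0.00024) and 1.17-fold. Atg14, another partner of VPS34, fell 1.29-fold and Atg9a, the membrane-spanning autophagy protein, fell 1.21-fold. Atg13, a subunit of the ULK complex, fell 1.17-fold (adjusted p = 0.0488), a call that ended on leaving out any of 16 arrays, the highest adjusted p being 0.0998 (GSK932121A replicate 18 left out). Its partner Rb1cc1 and the paralogous kinase Ulk2 differed by -0.18 and -0.22 and did not pass (adjusted p = 0.102 and 0.0603), although Rb1cc1 did without GSK932121A replicate 24 (0.0453) and with the filter at a mean of 7 (0.0462). Ulk2 passed without vehicle replicate 8 or GSK932121A replicates 17, 20 or 21 (lowest 0.0162) and with the filters at 5 (0.0351) and 7 (0.028). Of 21 genes for autophagosome formation and cargo receptors, 2 passed (9.52%): Map1lc3a, an LC3 gene, rose 1.28-fold, and Atg16l1 rose 1.15-fold, a call lost without GSK932121A replicates 13 (0.0538) or 22 (0.0515). Map1lc3a did not pass by the Welch test (0.0633) or with surrogate variables (0.883, with a log2 difference of 0.05), and the count for this list was then 1 and 0. With 2 up and 3 down, the called initiation genes moved in both directions.

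Among 26 genes of mTORC1 and its inputs, 8 passed (30.8%), 2 up and 6 down. Ddit4, a stress-induced inhibitor of mTORC1, was at 5.42 ± 0.20 on vehicle and 6.69 ± 0.75 on treated arrays (SD, n = 12 and 10), a rise of 2.41-fold (limma, adjusted p = 9.24e-05), and Rraga, a Rag GTPase, rose 1.22-fold. With surrogate variables neither passed (adjusted p = 0.113 and 0.231), the log2 difference of Ddit4 was 0.63 in place of 1.27, and the count for this list was 1. Sesn1, an amino acid-sensing sestrin, and Lamtor2, a Ragulator subunit, each fell 1.26-fold, and Eif4ebp1, a translation repressor, fell 1.25-fold. Deptor and Mlst8, subunits of the mTOR complexes, and Nprl2, of the GATOR1 complex, fell between 1.18-fold and 1.19-fold. The calls of Sesn1, Eif4ebp1, Deptor and Mlst8 each ended on leaving out any of 14 to 16 arrays, the highest adjusted p being 0.106 (Eif4ebp1, GSK932121A replicate 13 left out), and the count for this list was 4 to 7 with 1 array left out, and 5 after cyclic loess. Mtor itself and Rptor differed by -0.04 ± 0.06 and 0.08 ± 0.06 (SE) and did not pass, nor did Tsc2, at -0.14 ± 0.05 (SE; adjusted p = 0.0775), although it passed with both filters (0.0364 and 0.0212), the Welch test (0.0402) and the Wilcoxon test (0.0162). Of 3 genes of the folliculin complex, which acts on AMPK and on the Rag GTPases at the lysosome, 2 passed (66.7%). Fnip1 rose 1.42-fold with 9 of 10 treated arrays above the highest vehicle array (limma, adjusted p = 0.000323). Flcn rose 1.31-fold (limma, adjusted p = 0.007). Of 13 adenine nucleotide enzymes, 1 passed (7.69%, beside 12.4% of all genes). Ak3, a mitochondrial adenylate kinase that uses GTP, fell 1.30-fold (limma, adjusted p = 0.0106).

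**Figure D5:**
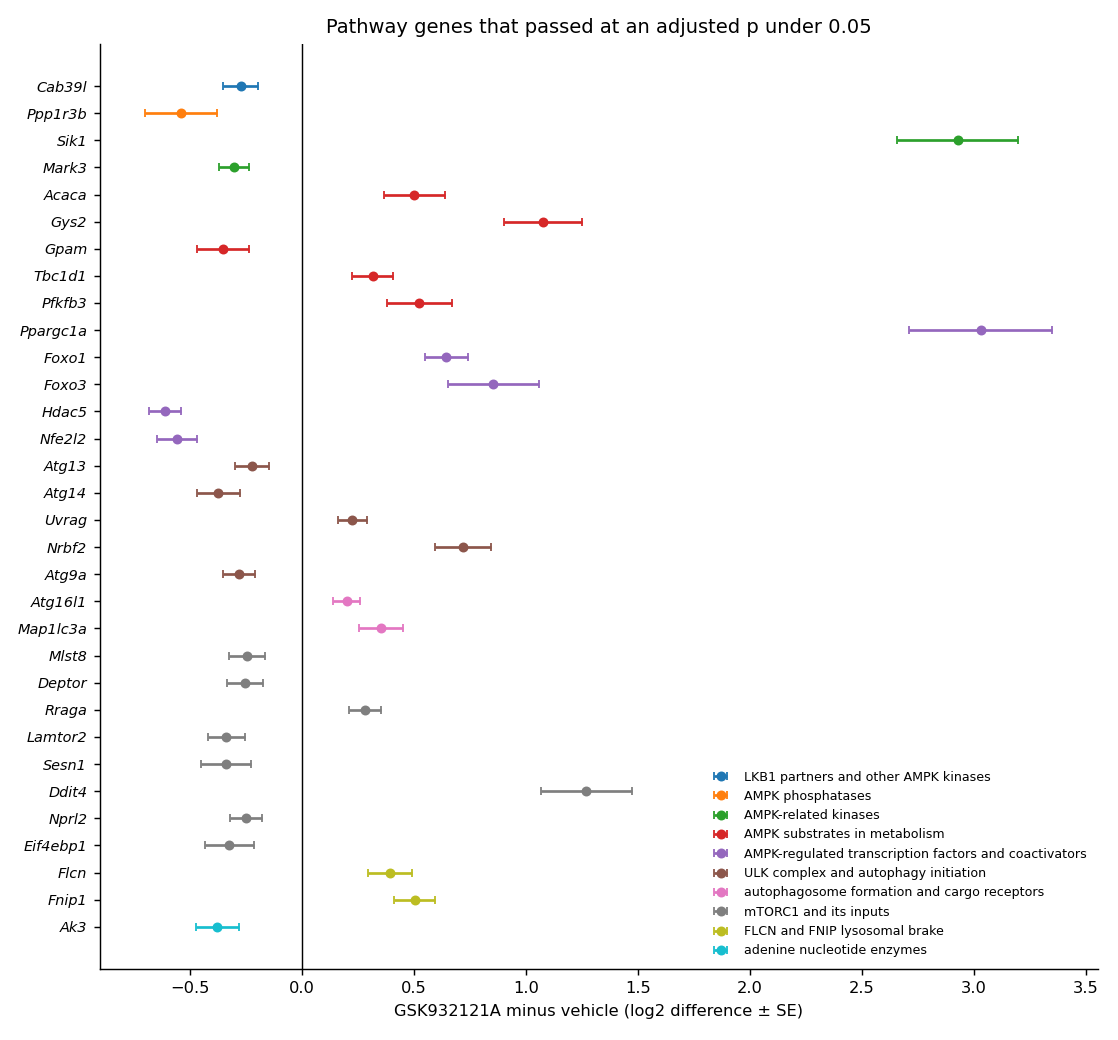
Log2 difference with its SE for the 32 pathway genes that passed, coloured by list. Ppargc1a, Sik1, Ddit4 and Gys2 lie at 1 log2 unit or more, and the others within 1 unit of 0.

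Markers of liver cell types were read from the same arrays. The 7 measured hepatocyte markers had mean levels from 11.63 to 11.80 on vehicle arrays and from 11.72 to 11.86 on treated arrays, far above the array medians. Of these, Cps1, a urea cycle enzyme, rose 1.25-fold, and the others, at log2 differences from -0.10 to 0.13, did not pass. Of 8 macrophage markers Cd163 rose 1.28-fold, and the others, from -0.20 to 0.18, did not pass. The macrophage mean ran from 7.36 to 7.98 on vehicle and from 7.44 to 7.97 on treated arrays. Of 3 measured sinusoidal endothelial markers Lyve1 rose 1.16-fold, while Cdh5 (-0.11) and Clec4g (0.03) did not pass. Of 5 stellate cell, 5 cholangiocyte, 6 neutrophil, 6 lymphocyte, 1 erythroid and 5 striated muscle markers 0 passed in limma, with 1, 0, 0, 4, 0 and 0 at an unadjusted p under 0.05 and 0 of the 28 by the Welch or Wilcoxon test, and all 6 neutrophil markers lay below the array median. In a bulk sample, a change in the number of cells of a type and a change in RNA per cell cannot be told apart. Single markers do not stand for their cell type, and the part of Cd163 and Lyve1 in the results above was not tested.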

How the data were processed

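The authors deposited log2 values made with RMA, per the submitters' processing notes, a method that subtracts a modelled background, equalises the arrays and merges the probes of a set. Its software and version are not given here. Normalisation between arrays removes any shift shared by all genes, and dim probe sets are compressed. Groups and replicate numbers came from the labels, which give no batch, litter or date. Of 36685 probe sets, 18511 had 1 gene symbol, and the one with the highest mean stood for each of 18166 genes. The groups were compared by limma 3.58.1 under R 4.3.3, with group as the only term and Benjamini-Hochberg adjustment over all genes. Arrays of single rats are the replicates, and their number limits the precision.

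Isoform pairs and correlations within groups used two-sided permutation tests of 100000 resamples (Python 3.11.15, numpy 2.4.6, scipy 1.17.1), and plots used matplotlib 3.10.9. The alternatives were other normalisations, filters at a mean of 5 or 7, other uses of the probe sets, an intensity trend, array weights, the Welch and Wilcoxon tests, 5 surrogate variables and each array left out. The members and lists were chosen with earlier results of these data known. All 8 members were named, up to 5 called genes per list by size of difference, and a fixed set (Strada, Cab39, Camkk2, Acaca, Acacb, Ulk2, Atg13, Rb1cc1, Mtor, Rptor, Tsc2, Flcn, Fnip1). Deptor, Mlst8, Nprl2, Prkag3, Cps1, Cd163, Lyve1 and the correlations with Ppargc1a were added after values were seen. For each member that passed, the 3 genes with the highest Pearson correlation of deviations from the group means were named. On simulated data for these 18166 genes, the fit recovered 25.4% of 67 genes changed 1.2-fold. It recovered 91.0% of 67 changed 1.5-fold and 97.0% of 66 changed 2-fold, and called 7 unchanged genes. Far fewer genes were changed there than the 2244 that passed in the data. Benjamini-Hochberg adjustment is stricter where fewer genes change, so these shares need not hold for the data.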

Additional observations from a re-analysis of the deposited data

Results flagged for a closer look

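Among the 10 treated arrays, 4 of 53 measures had 1 array far from the others by Dixon's criterion, which chance meets in about 1 of 20 groups (5%), so a few such cases come without any cause. GSK932121A replicate 24 had Gys2 at 8.21, the next lowest treated array being 9.23, and Hdac5 at 6.67, the next highest being 6.38. GSK932121A replicate 13 had Eif4ebp1 at 6.69, with the next lowest at 7.23, and Ak3 at 8.09, with the next lowest at 8.61. None of the 8 members was among them.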

How the results depend on the processing

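Prkaa1, Prkag2 and Ulk1 kept the direction of their difference under every alternative. No other member passed on all arrays or under any alternative. The small difference of Prkaa2 (0.02 on the log2 scale) changed sign with some arrays left out. It was -0.0074 without vehicle replicate 10, and -0.0032 and -0.014 without GSK932121A replicates 13 and 23. Prkaa1 lost its call with all probe sets tested (adjusted p = 0.0585), array weights (0.0585), the Welch test (0.0753) and surrogate variables (0.203), and ranged from 0.0235 to 0.0728 with 1 array left out. Prkag2 lost its call with median centring (0.0617), quantile normalisation (0.0515), cyclic loess (0.0939), all probe sets (0.0809), array weights (0.0836), the Welch test (0.0719), the Wilcoxon rank sum test (0.0685) and surrogate variables (0.0895), and ranged from 0.0103 to 0.0914. Ulk1 passed after cyclic loess (0.0461) and ranged from 0.0337 to 0.188. Of the members, 1 passed with median centring, quantile normalisation and the Wilcoxon test, and 0 with all probe sets, array weights, the Welch test and surrogate variables; the count ran from 0 to 2 with 1 array left out. Of the pathway genes 10 passed with surrogate variables, of which 8 were among the 32, and 26 to 33 with 1 array left out. Because the surrogate variables together explained 45.5% of the variance of the group label (treated or vehicle), they can take up a real group difference. The isoform pairs ranged from an adjusted p of 0.0103 to 0.134 (alpha), 0.309 to 0.961 (beta) and 0.0159 to 0.134 (gamma) with 1 array left out. Ppargc1a with Prkab1 lost its call without the 2 farthest arrays (r = -0.66). The cause of these changes was not tested. No paired analysis was possible because the groups share no replicate numbers. Prkab2 has no value under either filter on the mean, being too dim. With this number of arrays, changes of the size seen in the members can be missed, and 25.4% of simulated 1.2-fold changes were recovered. The simulation changed far fewer genes than the 2244 that passed here, which makes its adjustment stricter. How many such changes are missed in these data was therefore not measured.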
